A study of Mus musculus with 31 samples.

Results

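The genes described here act in polyunsaturated fatty acid synthesis and were followed in mouse liver RNA: the desaturases Fads1 and Fads2, the elongases Elovl2, Elovl5 and Elovl1, and the acyl-CoA synthetase Acsl5. They are 6 of 17097 genes with a probe set on the array, a mouse Affymetrix array of perfect-match probes, and they were taken by name from its annotation, not by their values. Each gene was read on 1 probe set, the one with the highest mean of log2 intensity over all arrays. The Fads1 value came from 1 of its 2 probe sets, Fads2 from 1 of 3, Elovl5 and Elovl1 from 1 of 2 each, and Elovl2 and Acsl5 have 1 probe set each. All 6 genes passed the filter on dim probe sets in every comparison.

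Dietary linoleic and alpha-linolenic acid are converted in the endoplasmic reticulum of hepatocytes into arachidonic and docosahexaenoic acid by alternating desaturation and elongation. FADS2 is the delta-6 desaturase that opens the pathway and FADS1 is the delta-5 desaturase that follows. ELOVL5 elongates polyunsaturated chains between these steps, ELOVL2 elongates the longer polyunsaturated chains, ELOVL1 mainly elongates saturated and monounsaturated very long chains, and ACSL5 activates free long-chain fatty acids to acyl-CoA. The family is known in liver for its control by the sterol regulatory element binding protein SREBP-1c and by PPAR alpha.

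The study asked, per its design text, which liver mRNAs depend on the transcription factor XBP1 and which are cleaved by IRE1 alpha, the stress sensor of the endoplasmic reticulum that splices Xbp1 mRNA. Male mice gave 31 arrays in 8 groups of 4, except untreated Ire1 ko with 3, and the labels call arrays of a group biological replicates. The first experiment held C57BL/6 Xbp1 ko mice and their WT littermates, aged 14 weeks and in the fed state. The second held C57BL/6 Xbp1 ko mice of 9 weeks, 8 days after injection of siRNA against luciferase (the control) or against IRE1, so that both groups carry the Xbp1 knockout. The third held WT C57BL/6 and Ire1 ko mice of 14 weeks, untreated and fed, or 6 h after tunicamycin at 2 mg/kg, an inhibitor of N-linked glycosylation that causes stress of the endoplasmic reticulum. The labels give no vehicle injection for the untreated mice and no feeding state for the treated ones. Injection and feeding therefore cannot be told apart from the drug. They give mixed strain for every Ire1 ko mouse, while the untreated WT mice of that experiment are called littermates, so strain and genotype cannot be told apart where the strain labels hold. The promoter driving a Cre recombinase, the deleted part of each gene and the siRNA carrier were not given in the sources used here.

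The deposited values are RMA intensities on a linear scale. The share of probe sets at an intensity of 16 or more was 19.8% to 23% per array, and arrays of a group correlated at 0.984 to 0.993. The 8 hepatocyte markers were all at a mean of 16 or more in every group, while adipocyte, pancreas, lymphocyte and cholangiocyte markers stayed below it. Xbp1 intensity was 393 to 567 in the 12 arrays labelled Xbp1 ko and 799 to 1151 in untreated WT arrays of both experiments. In the siRNA experiment the target went against the labels: Ern1, the gene of IRE1 alpha, was at 18 to 35 in the arrays labelled luciferase siRNA and at 169 to 236 in those labelled IRE1 siRNA. These arrays are therefore called by their labels, differences are given as labelled IRE1 minus labelled luciferase, and every direction turns if the labels were exchanged. Ern1 was at 148 to 153 in untreated Ire1 ko livers and 121 to 203 in untreated WT livers, and after tunicamycin at 270 to 467 in Ire1 ko and 212 to 304 in WT. It was thus not lower in the arrays labelled Ire1 ko; where its probes lie relative to the deletion is not given, so this checks nothing.

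Regulatory DNA is shown for 3 genes that were lower after tunicamycin, 1 desaturase and 2 elongases. RefSeq start sites on GRCm38.p6 gave 250 bases upstream for 5 of the 6 genes, in 7 windows, with none listed for Fads1. The windows below run 5′ to 3′ on the gene's strand, and capitals mark matches, on either strand, to 6 motifs: the E-box CACGTG, the NF-Y box CCAAT, the end of the endoplasmic reticulum stress element CCACG, the XBP1 site TGACGTGG, the sterol regulatory element TCACNCCAC and the GC box GGGCGG. The E-box is its own reverse complement, and the XBP1 site contains the reverse complement of the stress element end.
Fads2, chr19:10101504-10101753, minus strand: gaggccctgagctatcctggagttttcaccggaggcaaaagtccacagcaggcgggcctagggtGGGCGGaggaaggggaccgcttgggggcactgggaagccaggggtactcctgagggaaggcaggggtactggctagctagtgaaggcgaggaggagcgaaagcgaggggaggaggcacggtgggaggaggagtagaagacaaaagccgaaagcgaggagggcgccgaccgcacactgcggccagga
Elovl5, chr9:77917115-77917364, plus strand: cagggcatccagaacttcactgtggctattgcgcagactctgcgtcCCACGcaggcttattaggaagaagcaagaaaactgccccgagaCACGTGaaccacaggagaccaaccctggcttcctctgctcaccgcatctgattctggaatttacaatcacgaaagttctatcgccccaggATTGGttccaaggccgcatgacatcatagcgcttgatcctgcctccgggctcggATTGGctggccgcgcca
Elovl2, chr13:41220404-41220653, minus strand: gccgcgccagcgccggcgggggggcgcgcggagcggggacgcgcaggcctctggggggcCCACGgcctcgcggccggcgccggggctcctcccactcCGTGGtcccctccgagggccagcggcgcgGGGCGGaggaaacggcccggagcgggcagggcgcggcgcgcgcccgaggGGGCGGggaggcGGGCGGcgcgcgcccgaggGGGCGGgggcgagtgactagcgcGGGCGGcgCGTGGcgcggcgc
The Fads2 window held 1 GC box. The Elovl5 window held 1 E-box, 2 NF-Y boxes, at 71 and 17 bases before the start site, and 1 stress element end. The printed Elovl2 window held 3 stress element ends and 5 GC boxes in 87.2% GC, against a median GC content of 52.4% over all windows. A second Elovl2 window, not printed, held 1 stress element end and 0 GC boxes in 79.6% GC. Neither the XBP1 site nor the sterol regulatory element was found in any of the 7 windows. Over all 32851 windows of this length, 6.02% held the E-box, 33.8% the NF-Y box, 28.3% the stress element end, 0.563% the XBP1 site, 1.05% the sterol regulatory element and 32.7% the GC box. These matches describe letters only.

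In Xbp1 ko liver both desaturases were lower than in WT littermates, while no elongase and not Acsl5 passed the test. Fads1 intensity was 489, 642, 523 and 414 in the WT littermates and 219, 167, 189 and 188 in the knockouts. The groups did not overlap, and every knockout array was below every littermate array. Fads1 fell by 1.43 on the log2 scale (SE 0.14, n = 4 against 4, limma adjusted p 0.00142). Fads2 was at 239, 256, 227 and 230 in the littermates and at 92, 100, 77 and 106 in the knockouts, again with no overlap. Fads2 fell by 1.35 (SE 0.11, limma adjusted p 0.000459). On the other bright Fads2 probe set the difference was -1.06 with an adjusted p of 0.013. Averaging the probe sets of each gene left Fads1 called at -0.75. So 2 of 6 genes were called, both lower, where 2.71% of the 14010 genes tested were called in either direction and 2.07% were lower. With a filter at intensity 16, 557 of 5699 genes were called and 369 were lower. Adjusted p-values were taken over all genes tested with a threshold of 0.05.

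The elongases differed less than their arrays spread. Elovl2 was at 370, 380, 385 and 293 in the littermates and 316, 364, 337 and 296 in the knockouts, a log2 difference of -0.12 (95% interval -0.36 to 0.13). Elovl5 was at 1105, 1607, 901 and 1329 in the littermates against 1140, 1072, 580 and 1144, a difference of -0.35 (interval -0.95 to 0.25). The groups overlapped for both genes. Elovl1 ranged from 158 to 192 and from 123 to 175, a difference of -0.19 (interval -0.49 to 0.10). Acsl5 was at 948, 1032, 872 and 963 in the littermates and at 753, 751, 683 and 825 in the knockouts, with no overlap. Its difference of -0.34 had an interval of -0.51 to -0.18 and an adjusted p of 0.0534, just past the threshold; without knockout replicate 4 it was -0.39 with an adjusted p of 0.0472. Acsl5 was also called with a filter at intensity 16 (adjusted p 0.0132) and with one fit over all arrays (adjusted p 0.0495), which made 3 of 6. The median over the 6 genes was -0.34 on the log2 scale, against 0.01 over all genes tested. The summed intensity of the 8 hepatocyte markers was also lower, 35740 to 37873 in the knockouts against 38176 to 42317 in the littermates, with 2 of the 8 called lower, and its part in these differences was not tested. In these bulk samples, fewer cells of a type and less RNA per cell cannot be told apart.

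**Figure D1:**
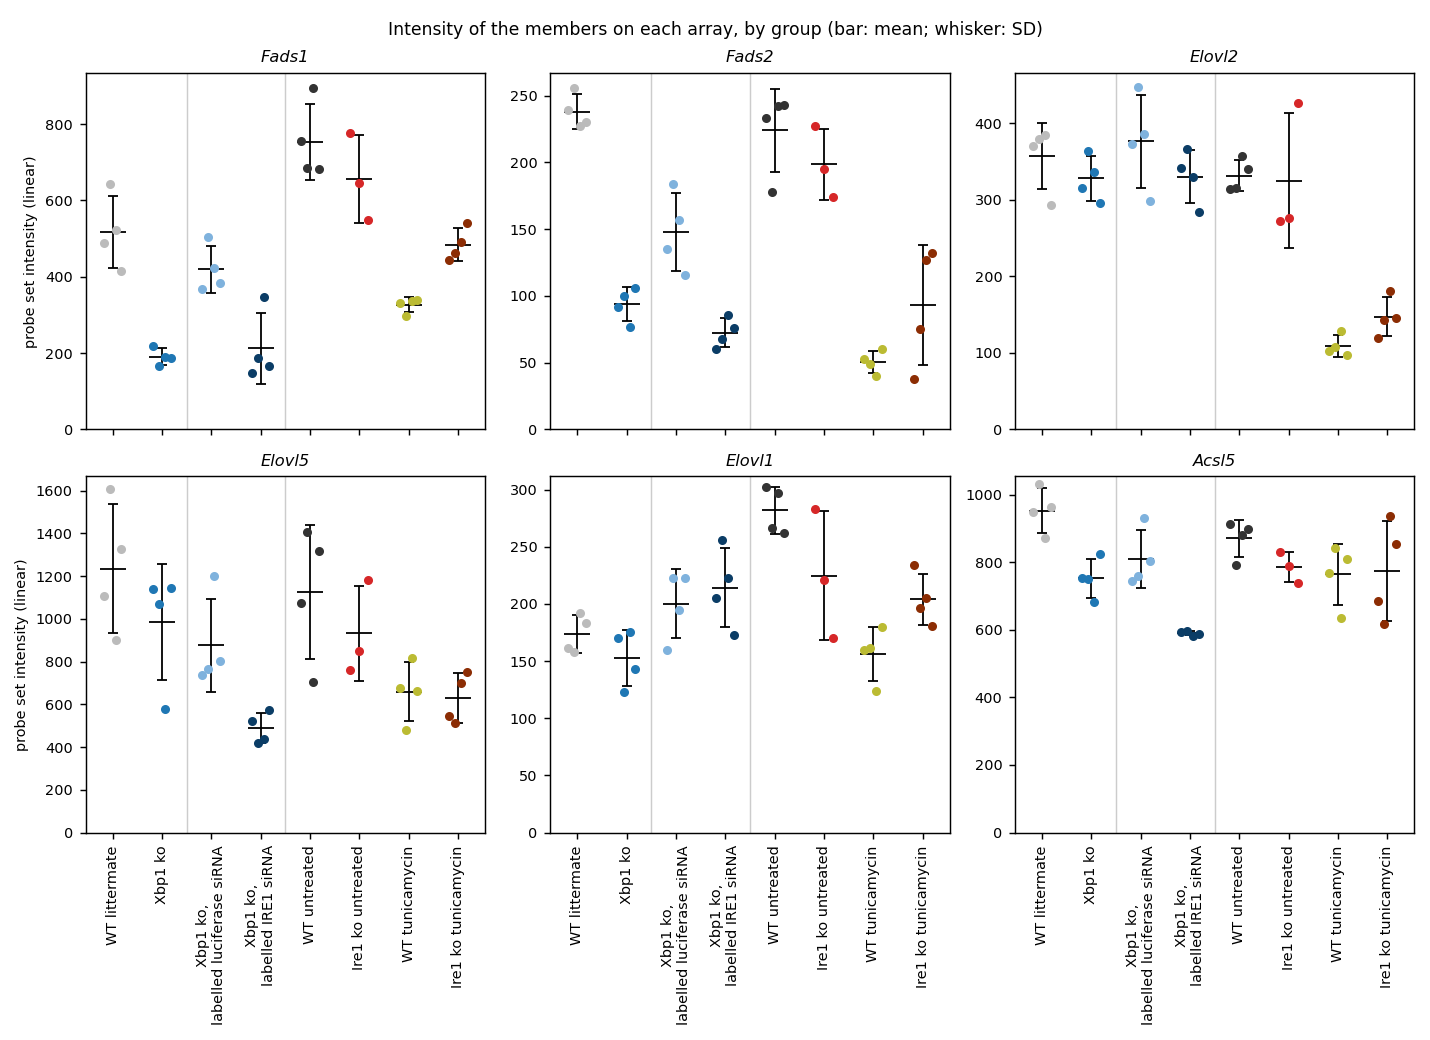
Probe set intensity on a linear axis for each of the 6 genes, 1 point per array in the 8 groups, with the group mean as a bar and the SD as whiskers. Fads1 and Fads2 sit lower in Xbp1 ko than in littermate livers without overlap, and Elovl2 lies at 97 to 181 in the tunicamycin groups against 273 to 448 in all others.

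In the siRNA experiment, Fads2 and Acsl5 were lower in the arrays labelled IRE1 siRNA than in those labelled luciferase siRNA. Fads2 was at 135, 184, 157 and 116 in arrays labelled luciferase and at 60, 68, 86 and 76 in arrays labelled IRE1, with no overlap. The log2 difference was -1.02 (SE 0.17, n = 4 against 4, limma adjusted p 0.029). On its other bright probe set, which has the higher linear mean, Fads2 was at 164, 258, 181 and 151 against 86, 83, 123 and 95, a difference of -0.95 with an adjusted p of 0.0678. The groups were apart on both probe sets, and the call held on only 1 of them. The call was also lost without any 1 of 6 of the 8 arrays, with adjusted p-values up to 0.0929. Acsl5 was at 746, 760, 932 and 803 in arrays labelled luciferase and at 594, 596, 582 and 588 in arrays labelled IRE1. That second group was the tightest of any, with an SD of 6.32 around 590.0. The difference was -0.45 (SE 0.07, adjusted p 0.0224), and the call was lost without any 1 of 5 of the 8 arrays. So 2 of 6 genes were called, both lower, where 1.8% of the 14031 genes tested were called in either direction and 1.15% were lower. With a filter at intensity 16, 398 of 5948 genes were called and 228 were lower.

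Fads1 and Elovl5 moved by similar amounts without passing the test. Fads1 was at 367, 504, 422 and 384 in arrays labelled luciferase and 148, 186, 348 and 166 in those labelled IRE1. The groups did not overlap, and replicate 3 of the second group stood apart at 348. The log2 difference was -1.06 (95% interval -1.68 to -0.44, adjusted p 0.122); without that array it was -1.33 with an adjusted p of 0.0075. Elovl5 was at 738, 764, 1202 and 804 against 521, 421, 439 and 573, a difference of -0.83 (interval -1.24 to -0.41, adjusted p 0.0761). These groups did not overlap either. Elovl2 at 299 to 448 against 284 to 366 and Elovl1 at 160 to 223 against 173 to 256 overlapped, with differences of -0.18 (interval -0.49 to 0.13) and 0.10 (interval -0.26 to 0.45). The median over the 6 genes was -0.64, against 0.04 over all genes tested. The summed hepatocyte markers were at 36016 to 37123 in arrays labelled luciferase and 33950 to 34433 in arrays labelled IRE1. Of the 8 markers 2 were called lower and 0 higher, beside 1.15% of all genes lower, and their part in the result was not tested.

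None of the 6 genes was called between untreated Ire1 ko and WT livers, where 0.943% of 15172 genes tested were called by limma. Of the 6, 1 had an unadjusted p under 0.05, Elovl1, beside 1441 of the 15172 genes. Fads1 was at 755, 685, 895 and 682 in WT and 776, 645 and 548 in Ire1 ko livers, a log2 difference of -0.21 (95% interval -0.46 to 0.05, n = 4 against 3). Fads2 was at 233, 178, 242 and 243 against 227, 195 and 174, a difference of -0.17 (interval -0.84 to 0.50), and the other bright Fads2 probe set also gave -0.17. Both desaturases overlapped between the genotypes. Elovl1 was at 302, 266, 297 and 262 against 283, 221 and 170, a difference of -0.35 (interval -0.69 to -0.02, adjusted p 0.487). Elovl2, Elovl5 and Acsl5 differed by -0.06, -0.25 and -0.15, each with an interval that holds 0.

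Whether the effect of the Xbp1 knockout differed from that of the Ire1 knockout was tested over the 15 untreated arrays of both experiments, a comparison added after the data were seen. The effect was more negative in Xbp1 ko for both desaturases. Fads1 differed by -1.22 on the log2 scale (SE 0.20, limma adjusted p 0.00186) and Fads2 by -1.18 (SE 0.19, adjusted p 0.00161). These were 2 of 6 genes called, both lower, where 0.603% of 15415 genes were called in either direction and 0.525% were lower. With a filter at intensity 16, 119 of 5989 genes were called and 98 were lower. The Fads2 call was lost on its other bright probe set, at -0.89 with an adjusted p of 0.134. Averaging the probe sets of each gene lost both calls, with Fads1 at -0.34 and Fads2 at -0.83; the second Fads1 probe set lies at 3 to 14 on all arrays, close to the lowest deposited value of 3. Experiment, littermate line and strain label move with this contrast and cannot be told apart from it. Elovl2, Elovl5, Elovl1 and Acsl5 differed by -0.06, -0.10, 0.16 and -0.19, each with an interval that holds 0.

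**Figure D2:**
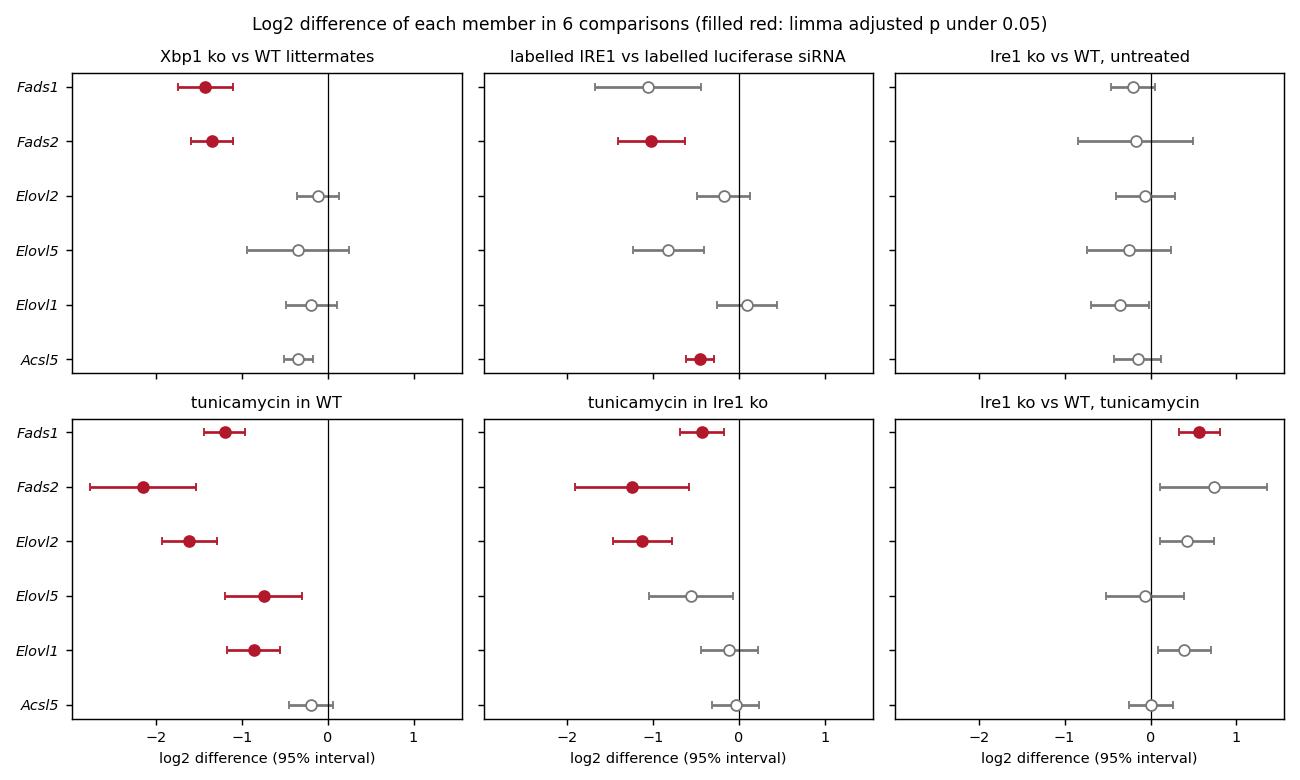
Log2 difference of each gene (horizontal axis, with its 95% interval) in 6 comparisons, with filled red points for an adjusted p under 0.05. Within the Xbp1 ko panel the desaturases lie farthest below 0 of the 6 genes, and 5 of the 6 genes are filled for tunicamycin in WT.

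In WT liver 5 of the 6 genes were lower 6 h after tunicamycin, both desaturases and all 3 elongases. Fads2 was at 233, 178, 242 and 243 in untreated livers and at 53, 49, 40 and 60 after tunicamycin, far outside the untreated range. It fell by 2.15 on the log2 scale (SE 0.29, n = 4 against 4, limma adjusted p 1.57e-05). On the other bright probe set Fads2 was at 281, 214, 314 and 289 against 22, 27, 30 and 42 and fell by 3.21, so that the size of the decrease depends on the probe set. Fads1 was at 755, 685, 895 and 682 against 332, 297, 336 and 340. Fads1 fell by 1.20 (SE 0.11, adjusted p 2.38e-07). Neither desaturase overlapped between treated and untreated livers.

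Elovl2, the elongase of the longer polyunsaturated chains, was at 314, 316, 357 and 340 in untreated WT livers and at 103, 107, 129 and 97 after tunicamycin. Elovl2 fell by 1.61 (SE 0.15, limma adjusted p 2.37e-07). Elovl1 was at 302, 266, 297 and 262 against 160, 161, 124 and 180 and fell by 0.86 (SE 0.15, adjusted p 0.00015). Both elongases were lower on every treated array. Elovl5 was at 1076, 1407, 703 and 1317 against 675, 482, 818 and 663, so that untreated replicate 3 lay inside the treated range. Elovl5 fell by 0.75 (SE 0.21, adjusted p 0.0104), but its second probe set gave -0.56 with an adjusted p of 0.0619 where every probe set was fitted on its own, and was not called. Acsl5 was at 914, 793, 880 and 900 against 769, 843, 635 and 811, an overlap with a difference of -0.20 (interval -0.45 to 0.06, adjusted p 0.24). With each array set to a common median of the probe sets at 16 or more, Acsl5 was called too, at -0.33 with an adjusted p of 0.0305, which made 6 of 6.

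Calls were frequent in this comparison: 36.2% of the 15172 genes tested were called in either direction and 17.7% were lower. With a filter at intensity 16, which leaves brighter genes, 4568 of 6456 were called and 2186 were lower. The 5 of 6 lower genes are read against both. The median over the 6 genes was -1.03, against -0.02 over all genes tested. Of 6 Kupffer cell markers 3 were called lower in WT after tunicamycin, with a summed intensity of 372 to 518 against 574 to 1170 in untreated WT. Of 6 endothelial markers 3 were called lower and 1 higher, with sums of 278 to 391 against 411 to 530. The sum of the 8 hepatocyte markers was 34155 to 34913 against 36223 to 39024, with 4 called lower and 1 higher. The part of these shifts in the result was not tested.

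In Ire1 ko liver, 3 of the 6 genes were lower after tunicamycin. Fads2 was at 227, 195 and 174 untreated and at 38, 75, 127 and 132 after treatment, and it fell by 1.25 (SE 0.32, n = 3 against 4, limma adjusted p 0.00649). On its other bright probe set the difference was -1.86 with an adjusted p of 0.000834. The treated arrays spread widely, with replicate 1 lowest at 38, but none reached the untreated range. Elovl2 was at 273, 276 and 427 against 120, 143, 181 and 145 and fell by 1.13 (SE 0.16, adjusted p 5.63e-05). Fads1 was at 776, 645 and 548 against 445, 461, 490 and 542, and it fell by 0.43 (SE 0.12, adjusted p 0.0133). The lowest untreated Fads1 array was only just above the highest treated one, and without untreated replicate 1 the difference was -0.30 with an adjusted p of 0.0868. One fit over all 31 arrays also lost the Fads1 call, at an adjusted p of 0.0799. Elovl5 was at 762, 850 and 1184 against 546, 514, 702 and 752, a difference of -0.56 (interval -1.05 to -0.07, adjusted p 0.0861); without untreated WT replicate 3 its adjusted p was 0.0402. Elovl1 at 170 to 283 against 181 to 234 and Acsl5 at 740 to 830 against 617 to 938 overlapped, with differences of -0.11 and -0.04. The 3 genes called lower stand against 27.7% of genes called in either direction and 10.3% lower. With a filter at intensity 16, 3877 of 6456 genes were called and 1486 were lower. The median over the 6 was -0.49, against 0 over all genes tested. Of the 8 hepatocyte markers 2 were called higher and 0 lower, beside 17.3% of all genes higher. Their summed intensity was 36983 to 39671 treated against 35327 to 39062 untreated, and its part in the result was not tested.

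The response to tunicamycin was smaller in Ire1 ko than in WT liver for Fads1 and Elovl1, by the test of the interaction. Fads1 changed by 0.77 less (SE 0.16, limma adjusted p 0.00736) and Elovl1 by 0.75 less (SE 0.21, adjusted p 0.044). These are 2 of 6 genes called, both in the positive direction, where 7.54% of 15172 genes were called in either direction and 3.59% were positive. With a filter at intensity 16, 1287 of 6456 genes were called and 673 were positive. The Elovl1 call was lost without any 1 of 12 of the 15 arrays; over all 15 such fits its value was 0.56 to 0.93. Where every probe set was fitted on its own, neither Elovl1 probe set was called, at adjusted p-values of 0.059 and 0.071. For Fads2 the difference was 0.90 (interval -0.01 to 1.82, adjusted p 0.264) and, without treated Ire1 ko replicate 1, 1.28 with an adjusted p of 0.0123. On the other bright Fads2 probe set the difference was 1.35 with an adjusted p of 0.121. Elovl2 differed by 0.49 (interval 0.02 to 0.95, adjusted p 0.237), and without untreated Ire1 ko replicate 3 by 0.70 with an adjusted p of 0.0412. Elovl5 and Acsl5 differed by 0.19 and 0.15, with intervals that hold 0.

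Among treated livers, Fads1 was higher in Ire1 ko, at 445, 461, 490 and 542, than in WT, at 332, 297, 336 and 340. The groups did not overlap and the log2 difference was 0.57 (SE 0.11, n = 4 against 4, limma adjusted p 0.00152). It was the 1 gene of 6 called, where 18.2% of genes were called in either direction and 9.68% were higher. With a filter at intensity 16, 2764 of 6456 genes were called and 1564 were higher. Fads2 was at 38, 75, 127 and 132 in Ire1 ko against 53, 49, 40 and 60 in WT, a difference of 0.73 (interval 0.12 to 1.35, adjusted p 0.102). On its other bright probe set Fads2 was at 27, 69, 112 and 94 against 22, 27, 30 and 42 and was called, at 1.18 with an adjusted p of 0.0193. Replicate 1 was the low Ire1 ko array on both probe sets, below every WT array on the first and inside the WT range on the other; without it the first probe set gave 1.11 with an adjusted p of 0.00105. Elovl2 at 120 to 181 against 97 to 129 and Elovl1 at 181 to 234 against 124 to 180 differed by 0.43 and 0.39, with adjusted p-values of 0.0606 and 0.0777. Elovl5 and Acsl5 differed by -0.06 and 0.01. The markers moved in the same comparison without overlap: summed hepatocyte markers were at 36983 to 39671 in treated Ire1 ko against 34155 to 34913 in treated WT, with 2 of 8 called higher, and summed Kupffer markers at 576 to 821 against 372 to 518, with 0 of 6 called by limma and 1 at an unadjusted p under 0.05. Over all genes, 4171 of 15172 had an unadjusted p under 0.05 among treated livers. In the interaction 1 of 8 hepatocyte markers was called higher, beside 3.59% of all genes. The part of these shifts in either result was not tested. The 4 comparisons of this experiment and its interaction share arrays, so their values are not independent of each other.

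**Figure D3:**
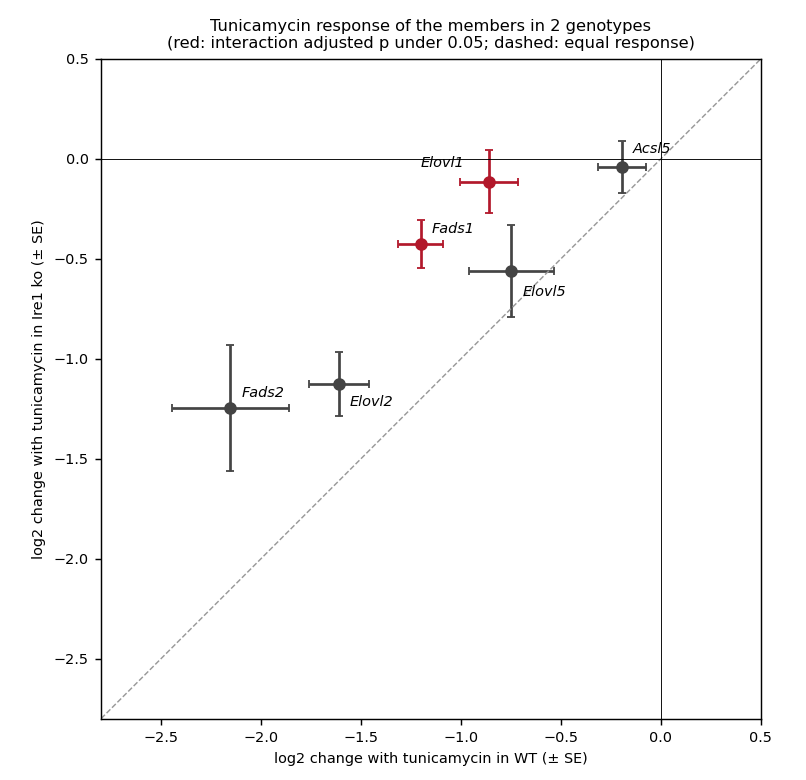
Log2 change with tunicamycin in WT (horizontal axis) against Ire1 ko (vertical axis) for the 6 genes, with SE bars, a dashed line of equal response and red for an interaction adjusted p under 0.05. All 6 points lie above the dashed line, Fads1 and Elovl1 are red, and Fads2 has the widest bars.

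The order of the 8 groups differed between genes, although experiments differ in age and were not tested against each other. Fads1 was highest in untreated WT (754 ± 99.7, SD, n = 4) and lowest in Xbp1 ko (191 ± 21.4, n = 4), and the only neighbours in its order whose arrays did not overlap were the arrays labelled luciferase (367 to 504) and treated WT (297 to 340). Fads2 was highest in WT littermates (238 ± 13, n = 4) and lowest in treated WT (50.5 ± 8.35, n = 4). On its other bright probe set treated WT was again lowest, but untreated WT was highest (274 ± 42.7) and WT littermates (198 ± 26.2) lay below both untreated groups of the tunicamycin experiment. On the first probe set its neighbours were apart only between the arrays labelled luciferase (116 to 184) and Xbp1 ko (77 to 106), and the arrays labelled IRE1 and treated WT met at 60. Elovl2 had 6 overlapping groups with means of 325 to 376 and then treated Ire1 ko (147 ± 25.2, n = 4) and treated WT (109 ± 14, n = 4), which overlapped each other. Elovl5 ran from 1236 ± 303 in WT littermates to 488 ± 71.2 in arrays labelled IRE1, and Elovl1 from 282 ± 20.7 in untreated WT to 153 ± 24.3 in Xbp1 ko, and in both orders all neighbours overlapped. Acsl5 ran from 954 ± 65.6 in WT littermates to 590 ± 6.32 in arrays labelled IRE1, and only that last group (582 to 596) was apart from its neighbour, Xbp1 ko (683 to 825).

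Probe sets of a gene moved together to different degrees. Within groups, the 2 bright Fads2 probe sets correlated at 0.87 over the 31 arrays, the Elovl5 pair at 0.96 and the Elovl1 pair at 0.57. The pairs share arrays and labelled RNA, so this is a description of the probes. The third Fads2 probe set lay at 5 to 19 and gave -0.73 in Xbp1 ko, -1.44 for tunicamycin in WT and -0.73 for tunicamycin in Ire1 ko. The second Elovl1 probe set gave -0.90 for tunicamycin in WT and -0.23 in Ire1 ko.

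**Figure D4:**
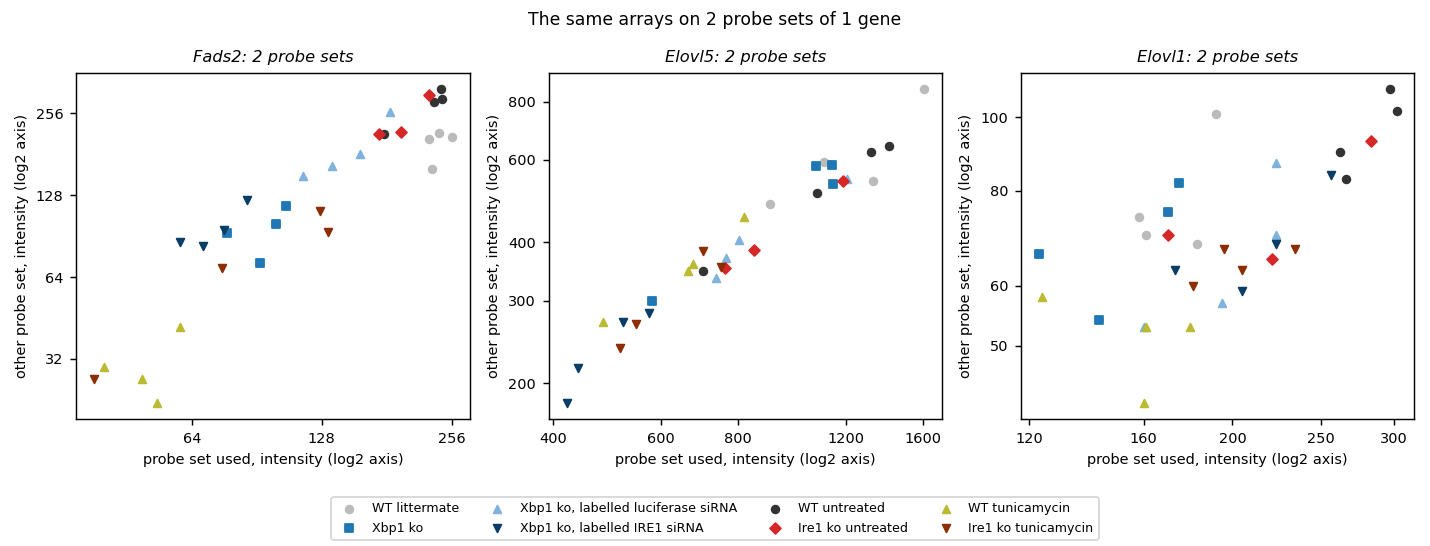
The same 31 arrays on 2 probe sets of Fads2, Elovl5 and Elovl1, as intensity on log2 axes, with colours and symbols for the groups. Within-group correlations are 0.87, 0.96 and 0.57, and treated WT arrays are among the lowest on both Fads2 probe sets.

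Fads1 and Fads2 lie next to each other on mouse chromosome 19, and no measured neighbour was called with them in Xbp1 ko. In gene order, the RefSeq table lists Best1, Rab3il1, Fads3, Fads2, Fads1, Fen1, Tmem258 and Myrf. In Xbp1 ko, Best1, Rab3il1, Fads3, Fen1 and Tmem258 gave values of -0.12 to 0. Limma called 0 of these 5, and 0 had an unadjusted p under 0.05, beside 380 and 1955 of 14010 genes. A dim probe set can hide a decrease: Fen1 did not pass the filter on dim probe sets in the siRNA comparison, and Fads3 was dim. Intensities of Best1, Rab3il1 and Tmem258 are not given here, so dim values may hide a decrease there too. The lack of calls among the neighbours therefore cannot decide whether they share the decrease. After tunicamycin in WT, Fen1, a flap endonuclease of DNA replication, rose by 0.58 (SE 0.12, limma adjusted p 0.00113). Tmem258, a subunit of the oligosaccharyltransferase, rose by 0.89 (SE 0.13, adjusted p 2.93e-05) and in Ire1 ko was at -0.14 with an interval that holds 0. Fads3, the third desaturase-like gene of the cluster, rose by 0.57 (adjusted p 0.033) at an intensity of only 5.75 untreated and 8.75 treated. Rab3il1 fell by 0.36 (adjusted p 0.0333). Myrf is not analysed here.

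Over the 31 arrays, after each experiment's mean was subtracted, Fads1 and Fads2 correlated with each other at 0.86, Fads2 and Elovl2 at 0.79, and Elovl5 and Elovl1 at 0.11. After group means were subtracted, the same pairs were at 0.41, 0.26 and -0.53, and the highest of the 15 pairs was Fads2 with Acsl5 at 0.64. The first set of values holds the group differences given above, and all pairs share the arrays. Among 4080 genes with a group mean of at least 64, the patterns most like each gene were Cd81 (0.91) and Tapbp (0.91) for Fads1, Masp2 (0.93) and F7 (0.92) for Fads2, and Serpind1 (0.96) and Slc25a23 (0.95) for Elovl2. For Elovl5 they were Masp2 (0.77) and H2-Q10 (0.76), for Elovl1 Ifi30 (0.80) and Nr1h3 (0.80), and for Acsl5 Slc27a5 (0.76) and Tmprss6 (0.75).

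The other steps of the elongation cycle, the reductases and dehydratases that complete each round of chain extension, were measured for 5 of 6 listed genes. Tecr, the last reductase of the cycle, was lower in Xbp1 ko, at a mean of 450 against 655 in littermates (log2 difference -0.54, SE 0.08, limma adjusted p 0.0118), and lower in arrays labelled IRE1 siRNA (-0.37, adjusted p 0.00704). Tecr was the 1 gene of 5 called in each of these comparisons, beside 2.07% and 1.15% of all genes lower. The list medians of 0.20 and 0.17 point the other way. After tunicamycin in WT, 4 of 5 fell (Hacd1, Tecr, Hacd2 and Hsd17b12), beside 17.7% of all genes, with a median of -0.55 against -0.02 over all genes, and Hacd1, a dehydratase, fell by 0.94. In Ire1 ko 2 of 5 fell, Tecr and Hsd17b12, beside 10.3% of all genes. Hacd1 and Hacd2 had positive interactions of 0.91 and 0.45, with adjusted p-values of 0.0017 and 0.0266.

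Of 4 other elongases, none was called in Xbp1 ko, in the siRNA comparison or in untreated Ire1 ko by limma, where 1 was higher in Xbp1 ko and 1 in the siRNA comparison at an unadjusted p under 0.05. Over all genes tested, 1955 of 14010, 2081 of 14031 and 1441 of 15172 had such a p in these comparisons. After tunicamycin in WT, Elovl6, which elongates palmitate, fell by 1.18 (adjusted p 0.00808) and Elovl7 was called higher, at a mean of 23.5 against 4.5, the latter under the median probe set value of 5. Elovl6 was 1.43 higher in treated Ire1 ko than in treated WT (adjusted p 0.00464). Of 7 other desaturases and electron donors measured out of 9, limma called none in the Xbp1 ko, siRNA and untreated Ire1 ko comparisons. There 1, 2 and 1 had an unadjusted p under 0.05, beside the counts over all genes given above. Cyb5r3, the reductase that feeds electrons to cytochrome b5, fell by 0.81 in WT and by 0.78 in Ire1 ko after tunicamycin. Cyb5b fell by 0.56 in WT, and Degs1, a ceramide desaturase, rose by 0.62 in Ire1 ko.

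Among 11 other acyl-CoA synthetases measured out of 12, 2 of the 10 tested were lower in Xbp1 ko, beside 2.07% of all genes. Acss2, which activates acetate, was at -1.12 (limma adjusted p 0.0104). Slc27a5, which activates bile acids and very long chain fatty acids, was at -0.75 (adjusted p 0.000459). Slc27a5 was also lower in arrays labelled IRE1 siRNA, at -0.59. After tunicamycin 6 of 11 fell and 1 rose in WT, and 5 fell and 1 rose in Ire1 ko, where 17.7% and 10.3% of all genes were lower. Acsl4, the synthetase with a preference for arachidonic acid, was the gene that rose, by 1.89 in WT and 2.77 in Ire1 ko. Acsm3 fell by 2.43 in WT and fell by 1.88 in Ire1 ko. The list medians were -0.36 and -0.31.

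The peroxisomal steps that shorten the last precursor to docosahexaenoic acid were measured for 8 of 10 listed genes, of which 6 fell after tunicamycin in WT and 5 in Ire1 ko, beside 17.7% and 10.3% of all genes. The 5 include Abcd2 at a dim mean of 4 against 5.33. Ehhadh fell by 1.20, Abcd3, a peroxisomal fatty acid transporter, by 1.07 and Acaa1b, a thiolase, by 0.70 in WT, and Acaa1b by 0.82 in Ire1 ko. None was called in Xbp1 ko, the siRNA comparison or untreated Ire1 ko by limma, where 3, 2 and 1 had an unadjusted p under 0.05. Over all genes tested these were 1955 of 14010, 2081 of 14031 and 1441 of 15172. The list for incorporation into phospholipid and transport held 14 names for 13 genes, Acbp being another name of Dbi, and all 13 were measured. Agpat3, an acyltransferase, was lower in Xbp1 ko (-0.59, adjusted p 0.0078) and in arrays labelled IRE1 siRNA (-0.57, adjusted p 0.0074). After tunicamycin in WT 5 of 13 fell and 2 rose, beside 17.7% and 18.5% of all genes: Mboat7, which attaches arachidonate to phosphatidylinositol, fell by 1.62, and Mfsd2a, a transporter of lysophosphatidylcholine with docosahexaenoic acid, rose by 1.58. Mfsd2a was 1.87 lower in treated Ire1 ko than in treated WT.

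For release and oxygenation of polyunsaturated fatty acids, 17 of 20 genes were measured. In the siRNA comparison Pla2g12b was lower (-1.06, adjusted p 0.000726) and Ephx1, an epoxide hydrolase, higher (0.53, adjusted p 0.0221) in arrays labelled IRE1. After tunicamycin 4 of 16 fell in WT, with Ephx1 at -0.79, and 3 in Ire1 ko, beside 17.7% and 10.3% of all genes. Of 10 regulators of desaturase and elongase transcription measured out of 12, 7 fell and 1 rose after tunicamycin in WT, with a median of -0.96, where 17.7% of all genes were lower and their median was -0.02. Srebf1, the gene of SREBP-1c, and Nr1h2 had no probe set with 1 gene symbol in the annotation used, so they were not analysed. The array may still hold probes for them. Ppargc1b, a coactivator, fell by 2.96. Ppara fell by 2.84, from a mean of 456 to 64.2, Insig1 fell by 1.51 and Rxra fell by 1.25. The 1 that rose, named for that after its value was seen, was Insig2 (0.68). In Ire1 ko 5 fell and 1 rose, beside 10.3% and 17.3% of all genes. Ppara was at -1.88, and its response was 0.96 smaller than in WT (limma adjusted p 0.0259). Nr1h3 also had a positive interaction, of 0.85 (adjusted p 0.00144). These were 2 of 10 called in the interaction, beside 3.59% of all genes positive. Among treated livers 5 of 10 were higher in Ire1 ko and 1 lower, Insig1, beside 9.68% and 8.48% of all genes. In Xbp1 ko, Scap, the escort of SREBP, was the 1 regulator of 10 called (-0.56, limma adjusted p 0.0107), beside 2.07% of all genes lower.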

How the data were processed

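Mouse liver RNA was measured on 31 arrays. The deposited values are linear probe set intensities, given as whole numbers, which the authors made with RMA and the affy package, per the submitters' processing notes; versions, and whether all arrays were normalised in one run, are not given in the sources used here. The deposited arrays do not share one distribution, with brightest values of 9367 to 24483, so scaling was among the alternatives. The table holds 45037 probe sets, of which 28898 have 1 gene symbol, 551 several and 15588 none in the annotation used, leaving 17097 genes. Detection calls and scan dates were not used here, and the number of arrays limits the precision.

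Log2 intensities were fitted with limma 3.58.1 in R 4.3.3 (lmFit, eBayes with trend, two-sided), with Benjamini-Hochberg adjustment over all genes tested and a threshold of 0.05. The Xbp1 and siRNA comparisons used their own 8 arrays each, and the tunicamycin experiment was 1 fit of 15 arrays. To be tested, a gene had to exceed the array's 30th percentile on 3 or more of the fitted arrays. The code was tested on simulated data.

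The rule of 1 probe set per gene by highest mean did not name the scale of that mean. Ranking by linear mean was run first; ranking by mean log2 was then adopted, to match how the series had been processed before, after both sets of results had been seen. It changes the probe set of 36 genes, Fads2 among them, and both Fads2 probe sets are therefore given.

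The genes, lists and comparisons were chosen with earlier results of these data known. Named are the 6 genes, up to 4 called genes per pathway list and comparison, and the 2 genes most alike each of the 6 by Pearson correlation; the neighbours on chromosome 19 were added after the data were seen. Alternatives were another scaling, filter, probe set rule, fit and variance trend, the replicate number as a block, and leaving out each array.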

Additional observations from a re-analysis of the deposited data

Results flagged for a closer look

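Of 42 gene and group combinations of 4 arrays, 4 had 1 array far from the others, where chance alone gives such an array in about 1 in 20 groups. Elovl2 was at 293 in WT littermate replicate 4, against 370 to 385 in the other littermates. Elovl5 was at 580 in Xbp1 ko replicate 3, against 1072 to 1144. Elovl5 was at 1202 in replicate 3 of the arrays labelled luciferase siRNA, against 738 to 804. Fads2 was at 178 in untreated WT replicate 2, against 233 to 243.

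Differences between effects were called in 4 cases, for the tunicamycin response and for the knockout effects. The tunicamycin response differed between Ire1 ko and WT for Fads1, by 0.77 on the log2 scale (limma adjusted p 0.00736), and for Elovl1, by 0.75 (adjusted p 0.044). The Elovl1 call was lost without any 1 of 12 of the 15 arrays, and neither Elovl1 probe set was called when fitted on its own. Strain label and genotype cannot be told apart in this experiment. The effect of the Xbp1 knockout was more negative than that of the Ire1 knockout in untreated liver for Fads1, at -1.22 (limma adjusted p 0.00186), and for Fads2, at -1.18 (adjusted p 0.00161). The knockouts belong to separate experiments, so experiment, littermate line and strain label cannot be told apart from this contrast. Averaging the probe sets of each gene lost both calls, and the other bright Fads2 probe set lost the Fads2 call.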

How the results depend on the processing

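Among the alternatives run, none reversed a called direction; of the recomputed differences, 1001 kept their side of the threshold, 34 lost a call and 33 gained one. The decreases of both desaturases in Xbp1 ko and of the 5 genes with tunicamycin in WT stayed called under each of these alternatives, although averaging probe sets moved Fads1 in Xbp1 ko from -1.43 to -0.75. With probe sets ranked by linear mean, the genes called were 1 for siRNA, 2 for treated Ire1 ko against treated WT and 1 for the contrast of the knockout effects. With all probe sets of a gene averaged, they were 1, 3 and 0. For siRNA, 4 were called with arrays set to a common median of the probe sets at 16 or more, with a filter at intensity 16 and with one fit over all arrays. For treated Ire1 ko against treated WT, 3 were called with quantile normalization, the filter at 16 and one fit, and 2 with the common median. One fit left 1 for the contrast of the knockout effects, and no filter left 1 for the interaction. The cause was not tested.

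Leaving out 1 array gave 0 to 2 genes called for siRNA, 1 to 3 for treated Ire1 ko against treated WT, 1 to 2 for the interaction, 2 to 4 for tunicamycin in Ire1 ko and 2 to 3 for Xbp1 ko. It gave 0 for untreated Ire1 ko, 5 for tunicamycin in WT and 2 for the contrast of the knockout effects.

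Replicate numbers are shared by the groups, and the labels do not say whether they pair the mice. Deviations of same-numbered arrays correlated at -0.18 to 0.20 over 21 pairs in the tunicamycin experiment. They correlated at -0.07 to 0.03 over 4 pairs for siRNA and 0.02 to 0.17 over 4 pairs for Xbp1. So few pairs cannot settle whether the mice were paired. With the replicate block, 0 genes were called for siRNA and 2 for treated Ire1 ko against treated WT, with counts for the other comparisons of 2 (Xbp1 ko), 0, 5, 3, 2 (interaction) and 2 as without it. Over all genes the block left 198 of 380 called for Xbp1 ko and 44 of 253 for siRNA; the filter at 16 gave 398 for siRNA and one fit 571 for Xbp1 ko.

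Scaling moved the share of lower calls. For siRNA, as labelled (these would be shares of higher calls if the labels were exchanged), it was 64% as deposited, 74.9% after quantile normalization and 84.4% with the common median. For untreated Ire1 ko it was 91.6% and 81.3% with the common median; for tunicamycin 48.9% and 64.2% in WT, and 37.3%, 52.2% (quantile) and 66.8% in Ire1 ko. The common median moved the median of all genes to -0.13 in WT and -0.18 in Ire1 ko, and there the 5 genes called in WT stayed called and Acsl5 was called too. Signal over background limits the dim probe sets, such as the second Fads1 probe set.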

Other observations

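Within groups, after group means were subtracted, the 6 genes varied by SDs of 0.13 (Acsl5) to 0.32 (Fads2) on the log2 scale over 31 arrays. The genes most alike in this variation, added after the data were seen and given as a description, were Mgll, the monoacylglycerol lipase, for Fads2 (0.80), Leap2 for Elovl5 (0.75), with Thrsp, a lipogenic regulator, at 0.64, and Ifi30 for Elovl1 (0.72). For Fads1 they were Abhd17c and Clint1 (0.67 each), for Elovl2 Vkorc1 (0.70) and for Acsl5 Capns1 (0.71). Nip7 was the most opposite to Elovl5 (-0.74), S100a10 to Elovl2 (-0.71) and Crp to Acsl5 (-0.70).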
